A study of Mus musculus with 24 samples.

Results

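Steroidogenic factor 1 (SF-1, gene Nr5a1) was removed from somatic cells of the mouse ovary, and whole ovaries were compared with those of littermates on postnatal day 4 (PND4). Knockout ovaries (cKO) carried Nr5a1 f/f and Amhr2-cre Tg/+. Controls carried Nr5a1 f/f without the cre, so that both genotypes share the floxed alleles and genotype cannot be told apart from carrying the cre. Amhr2-cre, named for the anti-Müllerian hormone receptor, acts in somatic cells of the gonad and in mesenchyme of the Müllerian duct. Of the 24 libraries of the series, the 8 from PND4 were used, 4 cKO (replicates 1 to 4) and 4 control (replicates 2 to 5). Per the labels, each library was made from poly(A) RNA of ovaries pooled from 3 to 5 mice. The labels do not say that pools with the same number belong together, and p-values measure the spread between pools.

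SF-1 is a nuclear receptor that binds DNA as a monomer at sites of the form CAAGGTCA and turns on genes of cholesterol handling, steroid synthesis and anti-Müllerian hormone signalling. In the mouse ovary at this age most oocytes rest in primordial follicles, each wrapped in a single layer of flat pregranulosa cells, and a first wave of follicles in the inner ovary has begun to grow. The pregranulosa cells come from an early supporting lineage and from cells of the surface epithelium that keep the Wnt co-receptor gene Lgr5 active, and the stroma, vessels and macrophages between follicles make up the rest of the tissue.

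Total counts lay between 11361365 and 13571755 in controls and between 11877943 and 13328424 in the cKO. Genotype separated along the first principal component, which held 53% of the variance. On the second (15.4%) cKO replicate 1 stood apart, and on the third (9.18%) control replicate 3. Transcripts of 3 possible admixtures varied between libraries. Summed over 7 erythroid genes, levels ran from 207.9 to 1094 CPM (a gene's counts per 1e6 counts of its library, scaled by TMM) in controls and from 205.4 to 4064 CPM in cKO ovaries. Neutrophil granule genes summed to 13.35 to 209.2 and 50.28 to 1434 CPM. Genes of duct epithelium summed to 179.9 CPM in control replicate 3 and to 5.532 to 44.66 CPM in the other 7 libraries; the neutrophil and duct lists were chosen after their values were seen. In edgeR 0 of 7 erythroid, 0 of 8 neutrophil and 0 of 8 duct genes passed an adjusted p of 0.05 (by unadjusted p 1, 3 and 0, and by DESeq2 2, 5 and 0). Cyp11b1 and Cyp11b2, which define the adrenal cortex, were at 0 in all 8 libraries. Germ cell genes (Ddx4), pregranulosa genes (Foxl2), and stromal genes (Pdgfra) were present in every library.

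Nr5a1 itself was measured first. Values by library are given throughout in the order of the replicate numbers, 2 to 5 for controls and 1 to 4 for cKO. Nr5a1 (ENSMUSG00000026751, GRCm38 chr2:38692656-38714542, minus strand) stood at 131, 141, 147 and 145 CPM in controls and at 81.7, 78, 62 and 62.7 CPM in cKO ovaries. No cKO library reached the lowest control. The log2 fold change was -0.99 ± 0.09 (SE from edgeR's quasi-likelihood fit, adjusted p = 1.48e-05; exact two-sided permutation p = 0.0286, the smallest that 4 against 4 libraries can give). Which exons the floxed alleles lose is not given in the sources used here, and the counts take in the whole gene. In whole tissue, fewer cells of a type and less RNA per cell cannot be told apart, here and in every result that follows.

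Amhr2, the receptor gene for which the cre line is named (ENSMUSG00000023047, chr15:102445367-102454633, plus strand), was at 260, 270, 277 and 275 CPM in controls and 79.7, 61.1, 52.3 and 51.9 CPM in cKO. Its log2 fold change was -2.14 ± 0.12 (adjusted p = 9.92e-07, exact permutation p = 0.0286), and cKO libraries averaged 22.6% of control. Whether the cre was inserted at this locus is not given in the sources used here, and loss of SF-1 and a changed Amhr2 allele cannot be told apart. The stretch of 250 bases before the RefSeq start of Amhr2 (build GRCm38.p6) holds 1 copy of the SF-1 site CAAGGTCA, set in capitals. It is shown with 2 other windows: Klhdc7a, which fell by 1.67 ± 0.14 (adjusted p = 5.86e-06) and has the variant CAAGGCCA, and Nr0b1, whose window has neither. Klhdc7a was chosen after its values were seen.
Amhr2, chr15:102445117-102445366, plus strand: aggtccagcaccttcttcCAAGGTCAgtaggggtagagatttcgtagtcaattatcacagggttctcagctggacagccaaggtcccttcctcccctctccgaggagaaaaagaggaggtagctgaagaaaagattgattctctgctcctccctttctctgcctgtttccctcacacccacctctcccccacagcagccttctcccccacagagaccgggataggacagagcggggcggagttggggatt
Klhdc7a, chr4:139968027-139968276, minus strand: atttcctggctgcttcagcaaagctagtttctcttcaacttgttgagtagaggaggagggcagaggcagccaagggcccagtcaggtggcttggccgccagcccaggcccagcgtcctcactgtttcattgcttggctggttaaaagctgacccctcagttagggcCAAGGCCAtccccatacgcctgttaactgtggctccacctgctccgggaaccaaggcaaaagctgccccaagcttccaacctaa
Nr0b1, chrX:86191525-86191774, plus strand: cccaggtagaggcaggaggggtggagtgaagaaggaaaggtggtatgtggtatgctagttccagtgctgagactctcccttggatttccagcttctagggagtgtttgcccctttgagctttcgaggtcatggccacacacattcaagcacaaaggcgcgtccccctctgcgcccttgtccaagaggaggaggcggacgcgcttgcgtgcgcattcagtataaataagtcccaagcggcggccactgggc

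The first base of the match lies 232 bases before the start in Amhr2 and 84 bases before it in Klhdc7a. Only exact copies were searched, so a window without a match may hold another form of the site. Both strands were searched for CAAGGTCA and for CAAGGCCA, which differ at 1 base and do not overlap each other in a match. Either motif stood in 373 of the 11925 tested genes with a RefSeq promoter (3.13%). It stood in 4.3% of the genes called lower and 2.93% of those called higher. Of the 213 genes lower by at least 2-fold that have a promoter entry, 16 held a match (7.51%), against 2.4% of the genes higher by at least 2-fold. No entry was found for Nr5a1, Star, Lgr5, Scarb1, Col4a3 or Amh.

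Of 55487 genes in the table, 16046 had enough counts to be tested, and 3489 passed an adjusted p of 0.05 in edgeR (21.7%), 1962 higher (12.2%) and 1527 lower (9.52%) in cKO. At least a 2-fold change was seen in 901 (5.62%), 603 of them higher and 298 lower. In 25.2% of genes every cKO library lay above, or every one below, all controls. The median log2 fold change of all genes was 0.00. These shares are the background against which the counts below are read. The pathways were described through 39 gene lists, with 565 distinct tested members, 151 of them called higher and 84 lower. The lists were chosen with earlier results of these data known, so that a count above the background is a description only.

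**Figure D1:**
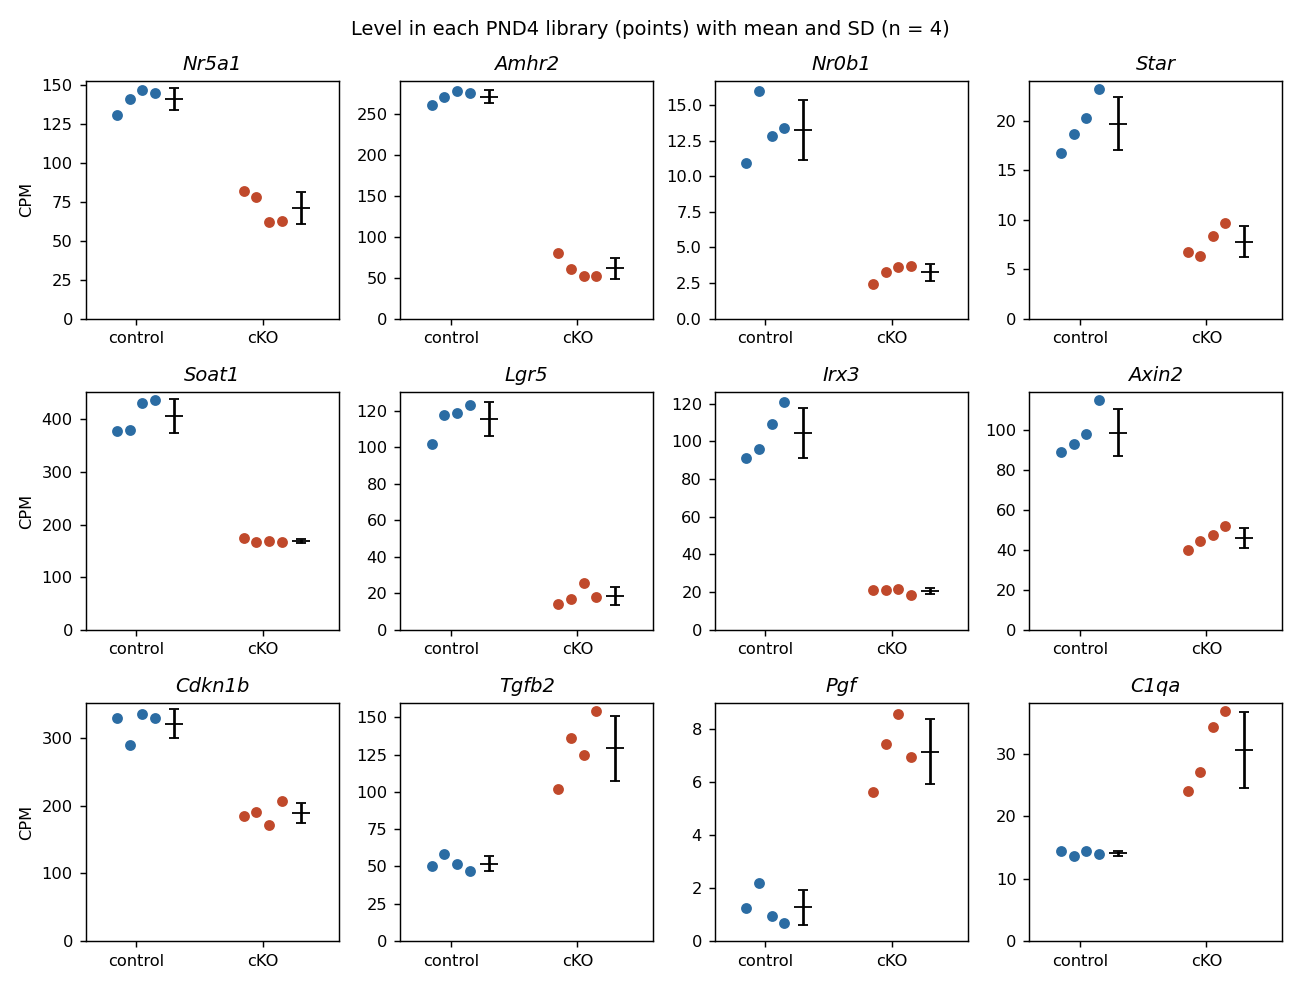
Level of 12 genes in each PND4 library. Each panel plots CPM on a linear axis from 0 for the 4 control (blue) and 4 cKO (red) libraries, with the mean and SD (n = 4) in black. The genotypes do not overlap in any of the 12 panels: Soat1, for example, lies between 377 and 436 CPM in controls and between 166 and 174 CPM in cKO ovaries. The 12 genes were picked by hand from called genes, so this count is a description only. Over all genes tested, 25.2% show no overlap.

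Genes of the SF-1 family and its cofactors in gonadal somatic cells were mostly lower. Of 12 tested, Nr5a1 among them, 7 fell, 2 rose and 3 did not pass; 1 rose without cKO replicate 3 or 4 or any 1 of the controls. Nr0b1, which encodes the corepressor DAX1, stood at 10.9, 16, 12.8 and 13.4 CPM in controls and at 2.42, 3.26, 3.62 and 3.72 CPM in cKO (log2 -2.03 ± 0.17, adjusted p = 7.56e-06), with a wide gap between the genotypes. Nr5a2, the close relative of SF-1 that acts in growing follicles, was at 77.6 CPM (SD 12.1, n = 4) and 83.6 CPM (SD 22.1, n = 4), and its difference of 0.11 ± 0.20 did not pass (adjusted p = 0.757). Among the cofactors Lhx9, a homeobox gene needed to form the gonad, fell by 0.66 ± 0.15, Cited2 by 0.50 ± 0.10 and Gata4 by 0.27 ± 0.06. Zfpm2, the gene of the GATA partner FOG2, rose by 0.70 ± 0.09, from 57.6 to 66.3 CPM in controls to 82.6 to 113 CPM in cKO.

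Steroidogenic genes were lower. Of 23 tested, 10 fell and 13 did not pass, with a median of -0.31. Among genes that supply cholesterol, Star, which encodes the protein that carries cholesterol into mitochondria, was at 16.8, 18.7, 20.3 and 23.2 CPM in controls and 6.78, 6.29, 8.39 and 9.69 CPM in cKO (-1.34 ± 0.15, adjusted p = 6.13e-05). Soat1, whose enzyme stores cholesterol as esters, fell from 377, 379, 431 and 436 CPM to 174, 166, 169 and 167 CPM (-1.26 ± 0.07, adjusted p = 3.21e-07). Its 4 cKO values lie within 8 CPM of each other. Scarb1, the receptor for high-density lipoprotein, fell by 0.38 ± 0.09.

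Among the enzymes, Fdxr, which feeds electrons to mitochondrial P450 enzymes, fell by 0.75 ± 0.17 and Cyb5a, a helper of CYP17A1, by 0.31 ± 0.07. Srd5a2, the gene of a steroid 5-alpha reductase, fell by 2.56 ± 0.24. Cyp11a1, which makes pregnenolone, was at 2.69 CPM in controls and 2.19 CPM in cKO on average and Cyp17a1 at 1.48 and 1.11 CPM; neither difference passed (adjusted p = 0.51 and 0.366). Cyp19a1, the aromatase gene, averaged under 1 CPM in both genotypes and was not tested. Hsd3b1 fell by 0.63 ± 0.17 (adjusted p = 0.0249), a call that was lost without cKO replicate 4 or without any 1 of the 4 controls (adjusted p from 0.0532 to 0.0771) and with no filter on low counts (0.101). In a model of all 24 libraries 4 steroidogenic genes were called lower, and Star, Fdxr, Scarb1 and Hsd3b1 were not called (edgeR adjusted p = 0.11, 0.0662, 0.258 and 0.564).

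Cholesterol synthesis genes fell in 6 of 23 cases and did not pass in 17 (median -0.15, 26.1% called against 21.7% of all genes). Hmgcs1, at the head of the pathway, stood at 183, 190, 185 and 205 CPM in controls and 151, 146, 126 and 135 CPM in cKO (-0.45 ± 0.07, adjusted p = 0.000629), with every cKO library below every control. Scap, the escort of the sterol-sensing transcription factors, fell by 0.56 ± 0.14. The count of 6 was 3 without control replicate 3 or 4, without cKO replicate 2, 3 or 4, and in the model of all 24 libraries. With no filter on low counts Scap was not called (adjusted p = 0.0678).

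Of 10 receptor genes for steroids and gonadotropins, 4 rose, 1 fell and 5 did not pass; the fall was not called without cKO replicate 1, 2 or 3 or control replicate 3, 4 or 5, or in the model of all 24 libraries. Prlr, the prolactin receptor, rose from 9.83, 12.4, 12.7 and 9.11 CPM to 23.7, 19.2, 18.8 and 21.6 CPM (0.92 ± 0.13, adjusted p = 0.00032), Gper1, a membrane oestrogen receptor, by 1.09 ± 0.23, and Nr3c1, the glucocorticoid receptor, by 0.39 ± 0.07. Esr1 and Esr2, the oestrogen receptors, differed by 0.21 ± 0.08 and -0.18 ± 0.23, and Fshr, the receptor for follicle-stimulating hormone, by 0.30 ± 0.45, none of which passed. Prlr was not called in the model of all 24 libraries (adjusted p = 0.0706).

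**Figure D2:**
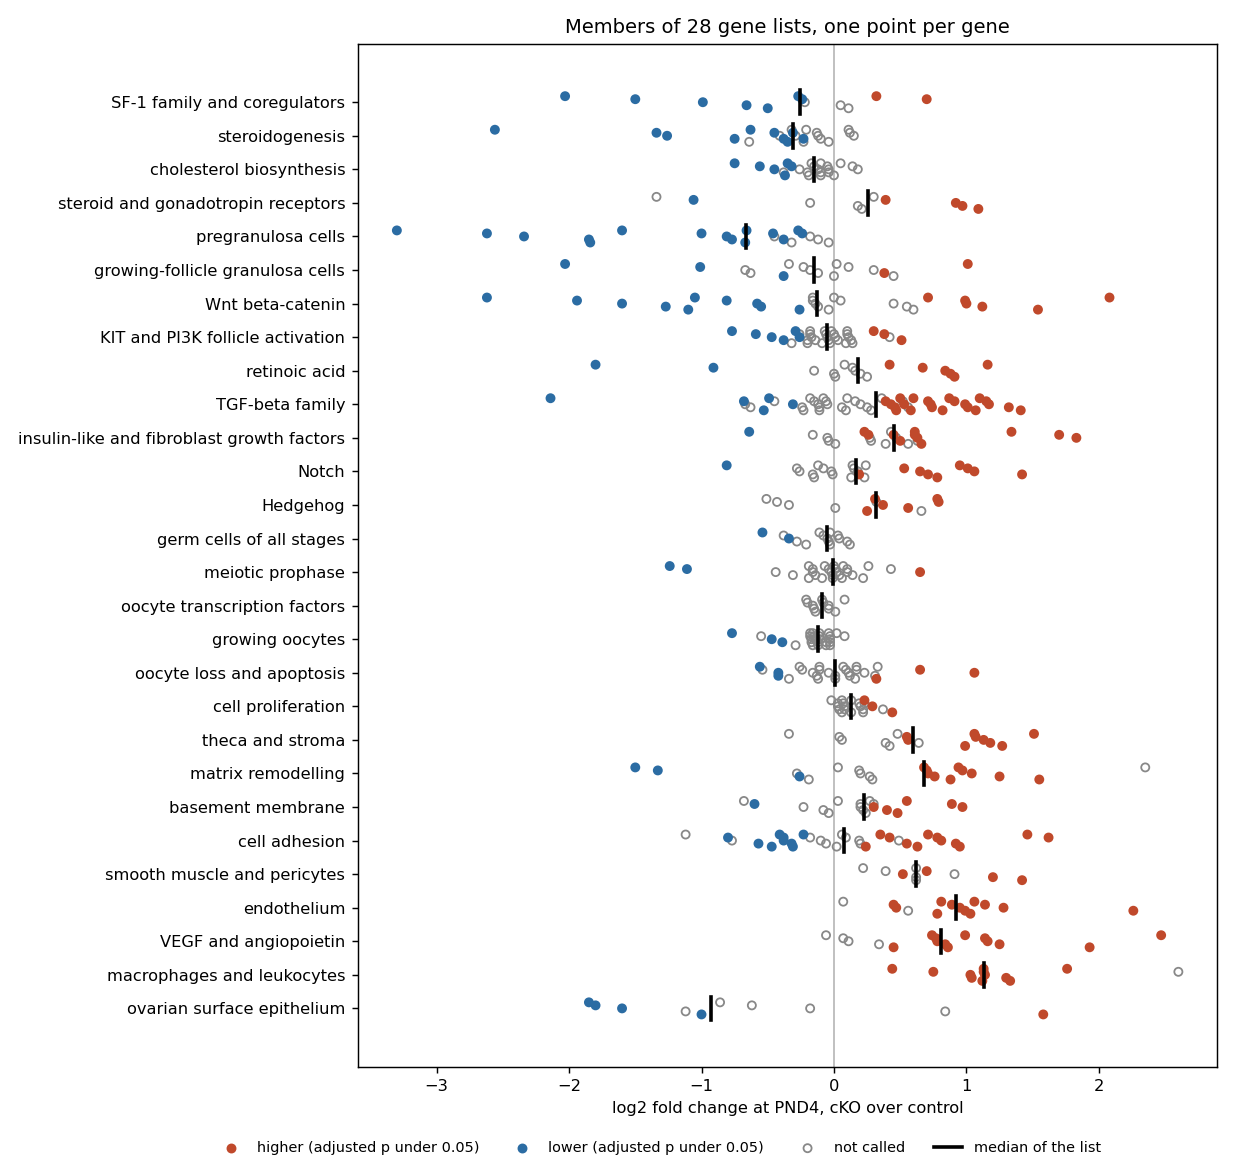
Log2 fold change at PND4 (cKO over control) of every tested member of 28 gene lists. Filled points passed an adjusted p of 0.05 (red higher, blue lower), open points did not, and the black bar is the list median. The pregranulosa list reaches to the left down to Gng13 at -3.30, while the endothelial list lies wholly to the right of 0 with a median of 0.92.

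Pregranulosa genes on the list were mostly lower. Of 20 tested, 15 fell and 5 did not pass (median -0.66). Lgr5 (ENSMUSG00000020140, chr10:115450311-115587780, minus strand) stood at 102, 118, 119 and 123 CPM in controls and at 14.4, 16.8, 25.8 and 18.1 CPM in cKO, 16.3% of control (-2.62 ± 0.15, adjusted p = 1.73e-06). Irx3 and Irx5, neighbouring homeobox genes on chromosome 8 that shape contacts between granulosa cells and oocytes, fell together. Irx3 went from 91.3, 96.2, 109 and 121 CPM to 21.3, 21.1, 21.8 and 18.2 CPM (-2.34 ± 0.10, adjusted p = 1e-07), and Irx5 fell by 1.84 ± 0.14. Gng13, a G protein gamma subunit gene, fell by 3.30 ± 0.24, from 12 to 24.3 CPM in controls to 1.38 to 2.39 CPM in cKO. Runx1, a transcription factor of the supporting lineage, fell by 0.67 ± 0.08.

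Not every pregranulosa marker was called lower, although the log2 fold change was negative in all 20 tested. Foxl2, which keeps granulosa cells from turning into testis-type cells, averaged 208 CPM in controls and 166 CPM in cKO (-0.32 ± 0.16, adjusted p = 0.188), and its genotypes overlapped. Wnt4 was at 77.1 and 75 CPM (-0.04 ± 0.09) and Bmp2 at 7.89 and 7.28 CPM (-0.12 ± 0.15). Genes of growing-follicle granulosa cells were mixed: of 16 tested, 2 rose and 3 fell, with a median of -0.15 (-0.39 without cKO replicate 1 and 0.01 without cKO replicate 3). Kctd14 fell by 1.01 ± 0.13 and Ccnd2, the cyclin of granulosa cell division, by 0.38 ± 0.07, while Inhba, an activin subunit gene, rose from 8.41 to 12.1 CPM to 16.5 to 27.4 CPM (1.01 ± 0.16). Amh (-0.67 ± 0.83) and Inha (-0.63 ± 0.44) varied widely between libraries and did not pass. Amh stood at 22.4, 15.4, 28 and 4.86 CPM in controls and 25.8, 12.2, 3.04 and 3.11 CPM in cKO, so that the genotypes overlapped.

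The surface epithelium list, which shares 4 keratin and mesothelial genes with the pregranulosa list, had 4 falls and 1 rise among 10 tested (median -0.93); the rises were 2 without cKO replicate 1. The keratin genes Krt8 and Krt18, partners in the intermediate filaments of simple epithelia, fell by 1.60 ± 0.14 and 1.85 ± 0.18. Krt18 stood at 116, 149, 135 and 154 CPM in controls and 28.8, 31.3, 51.4 and 41.5 CPM in cKO. Both lie on chromosome 15 near Amhr2 (Krt8 from 101996698, Krt18 from 102028180), and the part of any linked DNA around the cre was not tested. Lrrn4, a mesothelial gene, rose from 13.8, 20.9, 15.2 and 18.4 CPM to 27.4, 52.1, 72.4 and 52.6 CPM (1.58 ± 0.29, adjusted p = 0.00616). Upk3b, another mesothelial marker, was at 264 and 234 CPM and did not pass (adjusted p = 0.738).

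Testis-type genes were measured because loss of granulosa identity can turn them on. Of 13 tested, 2 rose and 3 fell, with a median of 0.01. Without cKO replicate 1 the falls were 5 and the median -0.41, and without cKO replicate 3 there was 1 rise. Sox9, the gene that drives Sertoli cells, was at 6.2 and 8.11 CPM (0.39 ± 0.17, adjusted p = 0.14). Dmrt1 averaged 0.186 and 0.299 CPM and was not tested. Mro and Cst9, which are active in the fetal testis, fell by 1.96 ± 0.18 and 1.77 ± 0.40. Cyp26b1, which breaks down retinoic acid, rose by 1.16 ± 0.15, from 13.1 to 14.7 CPM to 21.7 to 37.6 CPM. Cst9 was not called in the model of all 24 libraries (adjusted p = 0.437).

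Of 34 genes of the KIT and PI3K route, which holds primordial follicles at rest or wakes them, 3 rose and 6 fell (median -0.05; 26.5% called, near the background of 21.7%). Cdkn1b, which encodes the cell cycle inhibitor p27, stood at 330, 290, 337 and 331 CPM in controls and 185, 191, 172 and 208 CPM in cKO (-0.77 ± 0.07, adjusted p = 1.77e-05). Deptor, an inhibitor of mTOR, fell by 0.59 ± 0.09 and Tsc1, another brake on mTOR, by 0.29 ± 0.07. Foxo1 rose by 0.38 ± 0.08 and Inpp4b, a lipid phosphatase gene, by 0.51 ± 0.12. Tsc2 (-0.14 ± 0.09) and Foxo3 (-0.04 ± 0.07), which restrain follicle activation, did not pass. Kitl, the ligand from granulosa cells, fell by 0.38 ± 0.10 (adjusted p = 0.0188; 0.0589 without control replicate 4 and 0.0532 without control replicate 5). Its receptor gene Kit, active in oocytes, fell by 0.47 ± 0.13 (adjusted p = 0.0271), a call lost without control replicate 2, 4 or 5 or cKO replicate 2 or 4 (adjusted p from 0.0524 to 0.0774), with no filter (0.0939) and in the model of all 24 libraries (0.0557). The count of falls was 10 without cKO replicate 1 and 3 without control replicate 4.

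Wnt genes moved both ways. Of 26 tested, 10 fell, 6 rose and 10 did not pass. Among ligands, Wnt6 stood at 143, 165, 181 and 175 CPM in controls and at 55.5, 44.6, 37.7 and 35 CPM in cKO (-1.94 ± 0.14), and Rspo1, which amplifies Wnt signals in the fetal ovary, fell by 0.81 ± 0.18. Of 7 targets of the pathway 4 fell and 3 did not pass: Axin2 fell from 88.6, 92.9, 97.6 and 115 CPM to 40.1, 44.6, 47.5 and 51.7 CPM (-1.10 ± 0.10, adjusted p = 9.63e-06), and Lef1 by 1.27 ± 0.18. Rnf43, which removes Wnt receptors from the cell surface, fell by 1.60 ± 0.12. On the other side Sfrp1, a secreted Wnt inhibitor, rose from 114 to 163 CPM to 376 to 437 CPM (1.54 ± 0.10). Lgr6, the relative of Lgr5, rose from 3.6, 4.16, 4.34 and 2.43 CPM to 11.1, 15.6, 18.9 and 15.9 CPM (2.08 ± 0.20), and the receptor gene Fzd4 by 1.00 ± 0.08. Without control replicate 4 the count of rises was 3, and with no filter on low counts Rspo1 was not called (adjusted p = 0.0625).

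Of 50 genes of the TGF-beta family 22 were higher and 5 lower (54% called), with a median of 0.32. Of the ligands, Tgfb2 rose from 50, 58.6, 51.4 and 47 CPM to 102, 136, 125 and 154 CPM (1.32 ± 0.12, adjusted p = 1.44e-05), Gdf10 by 1.10 ± 0.13 and Bmp4 by 0.82 ± 0.13. The oocyte ligands Gdf9 and Bmp15 were at 221 and 206 CPM and at 16.3 and 15 CPM, with differences of -0.11 ± 0.29 and -0.11 ± 0.36. Of the receptors, Tgfbr2 rose by 0.99 ± 0.09 and the co-receptor gene Tgfbr3 by 0.71 ± 0.09, while Bmpr1b differed by -0.24 ± 0.09 (adjusted p = 0.0752). Ltbp1, which stores latent TGF-beta in the matrix, went from 125, 154, 161 and 104 CPM to 326, 335, 367 and 419 CPM (1.41 ± 0.14). Bambi, a decoy receptor gene, rose by 0.60 ± 0.08 and the BMP target Id3 by 1.07 ± 0.08. The count of 5 falls was 2 without control replicate 2, 3 or 4 or cKO replicate 3 or 4.

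Notch genes had 9 rises and 1 fall among 24 tested (median 0.16); the falls were 2 without cKO replicate 1. The ligand Dll1 rose from 2.78, 2.48, 2.81 and 2.6 CPM to 5.61, 5.61, 5.18 and 5.88 CPM (1.06 ± 0.16, adjusted p = 0.000447). The receptor genes Notch3 and Notch4, known from mural cells and endothelium, rose by 1.42 ± 0.27 and 1.01 ± 0.21, and Notch2, the receptor of pregranulosa cells, did not pass (-0.12 ± 0.06). Jag1, the main ligand on oocytes, was at 63.4 and 62.6 CPM. Lfng (0.71 ± 0.13) and Mfng (0.65 ± 0.15), which tune receptor choice, and the coactivator gene Maml2 (0.78 ± 0.11) rose. The target Hes1 fell from 69.5, 83.5, 69.6 and 81.1 CPM to 43.6, 43.6, 44.6 and 42.1 CPM (-0.81 ± 0.08), whereas Hey2 rose by 0.53 ± 0.12.

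Hedgehog genes had 6 rises among 12 tested, and 6 did not pass (median 0.32); without cKO replicate 1 there were also 3 falls. The co-receptor genes Gas1 (0.78 ± 0.10), Cdon (0.56 ± 0.10) and Boc (0.37 ± 0.08) and the transcription factor gene Gli2 (0.79 ± 0.19) rose. Gas1 stood at 172, 195, 181 and 148 CPM in controls and 259, 292, 356 and 293 CPM in cKO. The granulosa ligand gene Dhh was at 7.64 and 5.64 CPM and did not pass, and Ihh averaged under 1 CPM and was not tested. The pathway's own targets Ptch1 (-0.34 ± 0.26) and Gli1 (0.66 ± 0.39) did not pass either. Gli2 was not called with no filter on low counts (adjusted p = 0.0935).

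Of 23 genes of the IGF and FGF systems 11 rose and 1 fell (median 0.45). Igf1 rose from 197, 204, 199 and 173 CPM to 321, 295, 270 and 297 CPM (0.61 ± 0.07), and Igfbp3, the carrier of IGF1 in blood, from 61.5, 70.5, 71.6 and 55 CPM to 210, 197, 281 and 233 CPM (1.83 ± 0.12). Igfbp2 fell by 0.64 ± 0.12. Fgf1 rose by 1.70 ± 0.22 and Fgf10, a ligand made by mesenchyme, by 1.34 ± 0.27. Of 16 retinoic acid genes 6 rose and 2 fell. Of 6 genes of its synthesis and breakdown 2 rose and 2 fell. Aldh1a1, which makes retinoic acid, fell from 660, 653, 672 and 718 CPM to 246, 191, 162 and 179 CPM (-1.80 ± 0.11, adjusted p = 1.04e-06) and Aldh1a2 by 0.91 ± 0.16. Aldh1a3 rose by 0.88 ± 0.20 at a level of 12.1 to 32.2 CPM over the 8 libraries. The receptor genes Rarb (0.67 ± 0.16) and Rarg (0.84 ± 0.12) and the binding protein gene Crabp1 (0.91 ± 0.20) rose. Crabp1 was not called with no filter on low counts (adjusted p = 0.0585).

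Of 15 genes active in germ cells of all stages, 2 fell and 13 did not pass (13.3% called against 21.7% of all genes; 1 fell without control replicate 2), with Ddx4 at 141 and 137 CPM and Dazl at 123 and 131 CPM. Tdrd1, which works in transposon silencing, fell by 0.54 ± 0.13, a call lost with no filter on low counts and in the model of all 24 libraries (adjusted p = 0.0592 and 0.0889). Of 11 oocyte transcription factor genes, 0 were called: Nobox (-0.16 ± 0.09), Figla (0.08 ± 0.09) and Sohlh1 (-0.21 ± 0.12) did not pass, and the genotypes overlapped in all 11. By unadjusted p under 0.05 in edgeR and by DESeq2 the count was also 0. Of 28 meiotic genes 1 rose and 2 fell (10.7% called, under the share of 21.7% over all genes). Rec8, the meiotic cohesin, stood at 37.7, 37.4, 45.9 and 39.9 CPM in controls and 16.1, 14.9, 18.7 and 18.5 CPM in cKO (-1.24 ± 0.10, adjusted p = 5.86e-06). Another cohesin gene, Rad21l, fell by 1.11 ± 0.28, and the recombinase gene Dmc1 rose by 0.65 ± 0.15.

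Counts among genes of growing oocytes depended on single libraries. Of 27 tested, 3 fell and 24 did not pass (median -0.12, 11.1% called against 21.7% of all genes). Nlrp14, a maternal-effect gene, fell by 0.39 ± 0.09. The sum of the list was 11091, 10044, 11164 and 10875 CPM in controls and 12418, 9756, 8324 and 8226 CPM in cKO, so that cKO replicate 1 lay above every control and the other 3 cKO libraries below every one. Without cKO replicate 1 the number called lower was 15, with a median of -0.35; without cKO replicate 2 or 4 or control replicate 2, 4 or 5 it was 1, and in the model of all 24 libraries 0. The zona pellucida genes Zp1 (-0.15 ± 0.41), Zp2 (-0.18 ± 0.11) and Zp3 (-0.06 ± 0.23) did not pass with all 8 libraries. Nlrp14 was not called in the model of all 24 libraries (adjusted p = 0.74).

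Of 28 apoptosis genes 3 rose and 3 fell, 21.4% against a background of 21.7%. The BH3-only genes Bmf and Bcl2l11, whose proteins set off mitochondrial cell death, rose. Bmf was at 38.2, 43.5, 36.6 and 32.9 CPM in controls and 57.2, 83.5, 84.5 and 91.4 CPM in cKO (1.06 ± 0.14), and Bcl2l11 rose by 0.65 ± 0.09. Atm, the kinase that answers DNA breaks, fell by 0.56 ± 0.07; the falls were 1 without cKO replicate 4 or control replicate 2 or 3. Trp63, the guardian of oocyte quality, differed by -0.34 ± 0.14 (adjusted p = 0.0996), and Bax by 0.12 ± 0.07. Of 20 proliferation genes 3 rose and 17 did not pass (15% called), with Mki67 at 274 and 372 CPM (0.44 ± 0.11, adjusted p = 0.0115). This count was 1 without control replicate 2, 4 or 5 or cKO replicate 2 or 4, and 0 in the model of all 24 libraries. Of 12 immediate early and stress genes 1 rose (8.33% called), Ddit3 by 0.55 ± 0.13, and 3 rose without control replicate 3. In that model Mki67 and Ddit3 were not called (adjusted p = 0.228 and 0.0713).

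**Figure D3:**
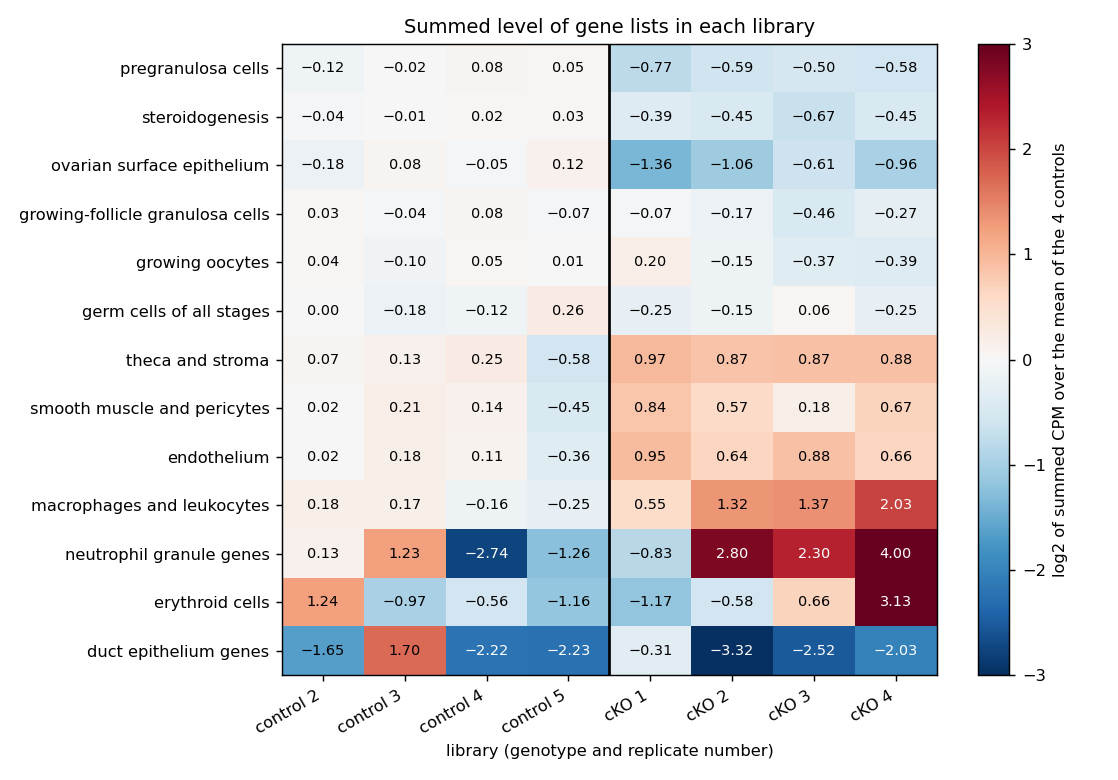
Summed CPM of 13 gene lists in each library, as log2 of the ratio to the mean of the 4 controls. Colour and number give the same value. Pregranulosa sums are lower in all 4 cKO libraries (-0.77 to -0.50) and endothelial sums higher (0.64 to 0.95), while erythroid and neutrophil sums vary within each genotype and peak in cKO replicate 4 (3.13 and 4.00).

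Genes of the stroma between follicles were higher. Of 16 theca and stroma genes 9 rose and 7 did not pass (median 0.60). Pdgfrb, the receptor of mural and stromal cells, rose from 73.9, 67.3, 75.4 and 45.8 CPM to 182, 175, 217 and 171 CPM (1.51 ± 0.15). Lum, a small proteoglycan gene, went from 248, 255, 246 and 222 CPM to 450, 485, 494 and 501 CPM (0.99 ± 0.07, adjusted p = 1.04e-06). The transcription factor gene Nr2f1 rose by 1.07 ± 0.20. Control replicate 5 held the lowest stromal sum of the 8 libraries, 5413 CPM against 8482 to 9601 CPM in the other controls and 14732 to 15854 CPM in cKO. Pdgfra (0.42 ± 0.15), Nr2f2 (0.48 ± 0.17) and Tcf21 (0.06 ± 0.09), which also mark the stroma, did not pass.

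Collagens and enzymes that shape the matrix were higher too. Of 40 collagen chain genes 22 rose and 3 fell. Col3a1, a fibrillar collagen, rose from 3423, 3601, 3806 and 2290 CPM to 6679, 6749, 7049 and 6882 CPM (1.06 ± 0.13), and the microfibril collagen gene Col6a6 from 103, 108, 124 and 109 CPM to 232, 239, 231 and 222 CPM (1.06 ± 0.07). Col14a1 rose by 1.60 ± 0.14. The falls included Col4a3 (-1.44 ± 0.19) and Col4a4 (-1.67 ± 0.16), paired genes of a basement membrane collagen; both are named after their values were seen. Of 21 matrix remodelling genes 10 rose and 3 fell (median 0.68). Mmp2 and its activator Mmp14 rose by 0.97 ± 0.09 and 0.94 ± 0.11, and the inhibitors Timp2 and Reck by 0.71 ± 0.09 and 0.76 ± 0.08. In contrast, Plau, the urokinase gene, fell from 48.4, 46.4, 43.5 and 46.6 CPM to 18.1, 16.4, 13.1 and 17.9 CPM (-1.50 ± 0.10), and Mmp15 fell by 1.33 ± 0.14.

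Adhesion genes moved both ways. Of 32 tested, 12 rose and 9 fell. Among the integrin subunits Itga1 (0.71 ± 0.08), Itga5 (0.78 ± 0.11), Itga7 (1.46 ± 0.24) and Itga8 (0.92 ± 0.11) rose, and Itga3 (-0.57 ± 0.08) and Itga6 (-0.38 ± 0.08), which bind laminin in epithelia, fell. F11r, a tight junction gene, fell from 68.8, 97, 87.7 and 93.7 CPM to 47.8, 49.6, 54.1 and 47.8 CPM (-0.80 ± 0.10), and Cdh2, the cadherin of granulosa cells, by 0.31 ± 0.07. Cdh1 averaged 27.6 and 12.7 CPM and did not pass (adjusted p = 0.105), with control replicate 3 highest at 49.3 CPM, the library that also held the most duct RNA; the part of duct tissue was not tested. Of 18 basement membrane genes 6 rose and 1 fell; the fall was not called without cKO replicate 2 or 4, without any 1 of the controls or with no filter on low counts. Lama4 (0.89 ± 0.09) and Nid2 (0.97 ± 0.13), found around vessels, rose; Nid1 (0.30 ± 0.12) and Col4a1 (0.24 ± 0.10) did not pass.

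Vessels were represented by 14 endothelial genes, of which 12 rose and 2 did not pass (median 0.92). Plvap, which forms the diaphragms of fenestrated capillaries, stood at 5.08, 6.13, 6.21 and 2.95 CPM in controls and 32.5, 22.1, 22.5 and 21.1 CPM in cKO (2.26 ± 0.22, adjusted p = 3.25e-05). Pecam1 (1.06 ± 0.12), Cdh5 (0.81 ± 0.13) and Vwf (1.28 ± 0.17), found in all endothelium, rose as well. Of 16 genes for ligands and receptors of vessel growth 12 rose and 4 did not pass. Pgf, the placental growth factor gene, went from 1.23, 2.19, 0.935 and 0.694 CPM to 5.61, 7.43, 8.56 and 6.92 CPM (2.47 ± 0.29), Angpt2 rose by 1.93 ± 0.18, Vegfc by 1.25 ± 0.19 and Angpt1 by 0.84 ± 0.11. Vegfa, the main vascular growth factor gene, was at 50.1 and 48 CPM (-0.06 ± 0.13, adjusted p = 0.799). The receptor genes Tek (0.78 ± 0.10), Tie1 (1.14 ± 0.19), Kdr (0.45 ± 0.09) and Aplnr (1.16 ± 0.15) rose. Of the mural cell genes, Rgs5 rose by 1.20 ± 0.17, and Myh11 (0.62 ± 0.31) and Acta2 (0.39 ± 0.19) did not pass. Lymphatic markers did not share a direction: Flt4 rose by 0.77 ± 0.15, Pdpn, which epithelia also use, fell by 0.87 ± 0.06, and Prox1 (-0.16 ± 0.14) and Lyve1 (-0.50 ± 0.20) did not pass.

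Of 12 macrophage and leukocyte genes 11 rose and 1 did not pass (median 1.13). Csf1r, the receptor for the macrophage growth factor, rose from 25.1, 20.7, 23.8 and 17 CPM to 46.8, 37.7, 50.9 and 41.2 CPM (1.03 ± 0.13). The 3 subunit genes of complement C1q, neighbours on chromosome 4, rose by nearly the same amount: C1qa by 1.12 ± 0.13, C1qb by 1.14 ± 0.14 and C1qc by 1.13 ± 0.13. C1qa was at 14.4, 13.6, 14.4 and 13.9 CPM in controls and 24.1, 27.1, 34.4 and 37 CPM in cKO. Neutrophil RNA, whose source in blood or tissue was not tested, varied between libraries. The pan-leukocyte gene Ptprc, at 7.45, 7.15, 6.55 and 6.33 CPM in controls, was at 7.72 CPM in cKO replicate 1, where the neutrophil sum was 50.28 CPM, and at 19.7 to 20.5 CPM in the other cKO libraries, where it was 441.9 to 1434 CPM; the part of blood in this rise was not tested. Csf1r and C1qa were above every control also in cKO replicate 1.

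**Figure D4:**
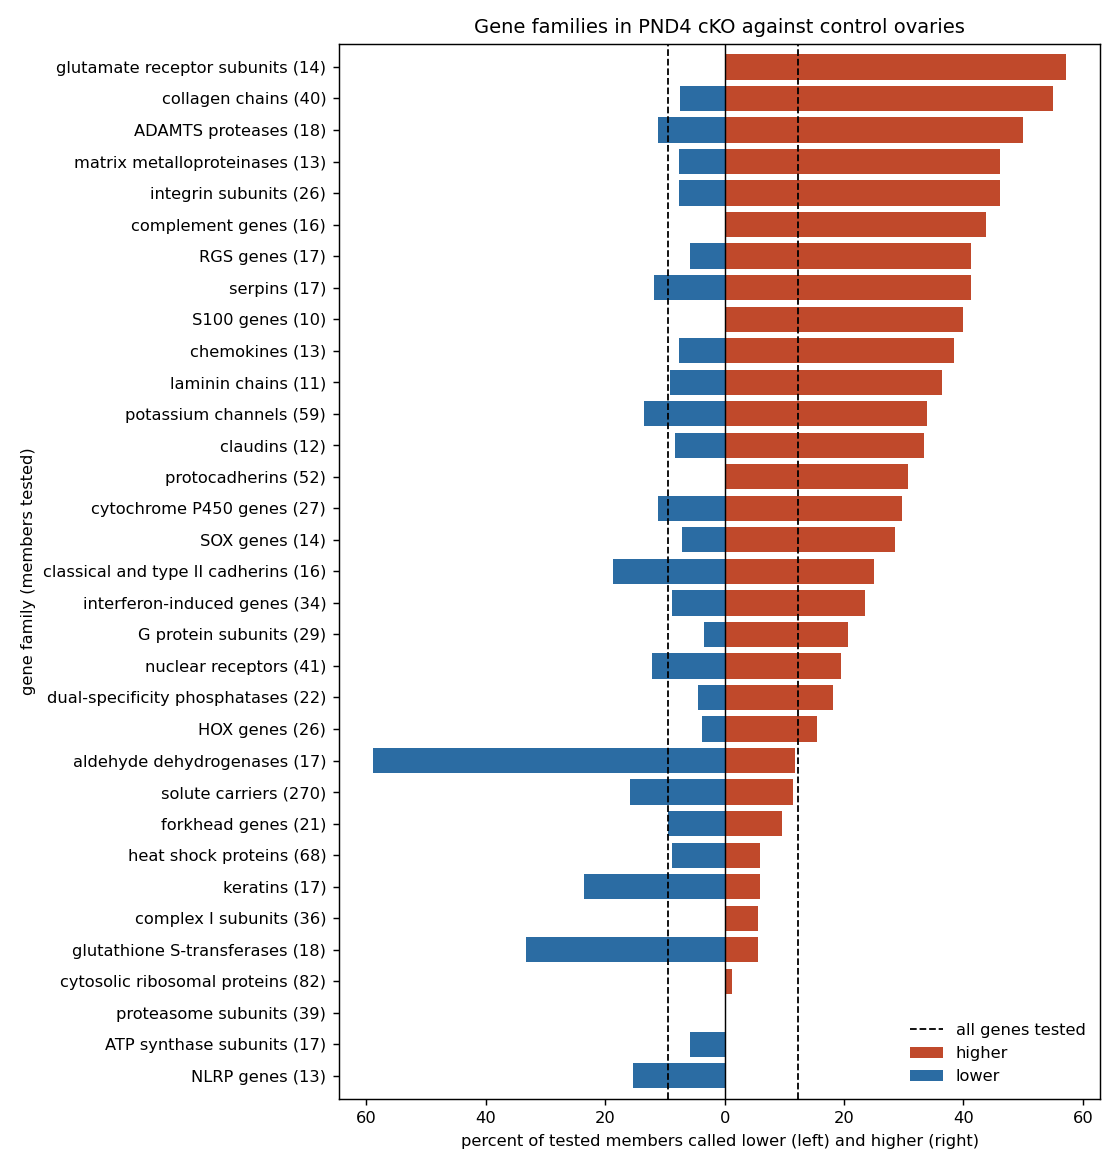
Percent of the tested members of gene families called lower (blue, left) and higher (red, right) in PND4 cKO ovaries, for families with at least 10 tested members. Dashed lines mark the shares over all genes tested, 12.2% higher and 9.52% lower. Collagens reach 55% higher (22 of 40) and aldehyde dehydrogenases 58.8% lower (10 of 17), whereas proteasome subunits have no called member.

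Gene families were counted too, and some stood away from the background. Families share members with the lists above, such as Aldh1a1 and Cst9. Of 17 aldehyde dehydrogenase genes 10 fell and 2 rose (70.6% called); 1 rose without control replicate 2, 4 or 5. Aldh1b1, a mitochondrial member, stood at 161, 164, 149 and 177 CPM in controls and 57.9, 61.2, 50 and 61.2 CPM in cKO (-1.50 ± 0.08, adjusted p = 3.21e-07), and Aldh2, which clears acetaldehyde, fell by 0.51 ± 0.07. Aldh1a7 lies beside its close relative Aldh1a1 on chromosome 19 and fell by 1.90 ± 0.14. Of 18 glutathione S-transferase genes 6 fell and 1 rose, a rise not called without cKO replicate 2, 3 or 4 or control replicate 2 or 4. Gstm1 (-0.72 ± 0.09), Gstm2 (-1.17 ± 0.07) and Gstm6 (-2.15 ± 0.13), which detoxify reactive compounds, sit in one cluster on chromosome 3 (107938847 to 108017973). Gstm6 went from 103, 111, 126 and 145 CPM to 28.9, 22.3, 26.7 and 31.3 CPM. Reads can be split between such close relatives, so that single members are uncertain.

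Some p200 genes of the interferon-induced family lie side by side on chromosome 1. Ifi204 stood at 3.28, 3.06, 3.06 and 2.43 CPM in controls and 21.9, 26.4, 28.6 and 25.2 CPM in cKO (3.10 ± 0.14, adjusted p = 1e-07), and Ifi203 (2.17 ± 0.16), Ifi211 (2.60 ± 0.36) and Ifi202b (2.55 ± 0.35) rose beside it, between 173747293 and 173982744. These genes sense DNA in the cell, and they are similar enough to share reads. Of 34 tested interferon-induced genes 8 rose and 3 fell; the 3 falls were 0 without control replicate 5 or cKO replicate 2. The cystatin genes Cst12 (-1.55 ± 0.15), Cst8 (-2.63 ± 0.28) and Cst9, protease inhibitor genes of the gonads on chromosome 2 (148789361 to 148838738), fell, while the ubiquitous Cst3 rose by 0.37 ± 0.06.

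Among families of membrane proteins, some had called members in both directions and others had rises only. Of 270 solute carrier genes 31 rose and 43 fell (27.4% called, against 21.7% of all genes), with 19 rises without control replicate 5. Of 14 glutamate receptor subunit genes 8 rose and 6 did not pass. Grik1 stood at 1.31, 2.12, 1.02 and 2.08 CPM in controls and 5.07, 13.2, 20.9 and 12 CPM in cKO (2.96 ± 0.44), and Grik4 rose by 2.43 ± 0.36. Of 59 potassium channel genes 20 rose and 8 fell, with Kcnn3 at 1.41 ± 0.11 and Kcnh6 at -2.34 ± 0.17; without cKO replicate 2 the rises were 12. Of 52 protocadherin genes 16 rose and 36 did not pass, including Pcdh9 (1.37 ± 0.15) and Pcdh19 (1.19 ± 0.13); without control replicate 2 they were 10. All 5 tested angiopoietin-like genes rose, from Angptl4 (0.45 ± 0.08) to Angptl7 (3.87 ± 0.23). At the other end, 0 of 39 proteasome subunit genes and 0 of 6 MCM helicase genes passed in edgeR (by unadjusted p under 0.05, 1 and 0; by DESeq2, 0 and 0), and 1 of 82 cytosolic ribosomal protein genes did. The ribosomal count was 10 without cKO replicate 1 and 2 without control replicate 5, and that 1 call was lost without cKO replicate 3 or 4 or control replicate 2, 3 or 4.

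Of single genes, Angptl7 rose most among called genes with a mean of at least 1 CPM and no overlap, from 0.737, 1.24, 0.85 and 0.694 CPM to 13.5, 10.2, 16.6 and 12.3 CPM. Car10 (3.23 ± 0.38), Corin, whose protease activates natriuretic peptides (2.89 ± 0.21), Gbp2b (2.75 ± 0.39), Serpina3n, an acute-phase protease inhibitor (2.74 ± 0.52), Asic1, an acid-sensing channel (2.74 ± 0.30), and Dscaml1 (2.65 ± 0.28) followed. Mcemp1 (2.91 ± 0.52) and Pirb (2.69 ± 0.41), genes of myeloid cells, were lowest, among the cKO, in replicate 1, the cKO library with the smallest neutrophil sum; the part of blood was not tested. Corin stood at 2.29, 1.9, 2.3 and 2.95 CPM in controls and 11.3, 18.3, 20.1 and 20.2 CPM in cKO. Ifitm6, also of myeloid cells, rose by 2.81 ± 0.73 (adjusted p = 0.03), and its call was lost without any 1 of the controls or cKO replicate 2 (adjusted p from 0.0598 to 0.108), with no filter, with the replicate block and in the model of all 24 libraries.

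Falls were led by Gpr55, a lipid-sensing receptor gene, from 6.31, 6.35, 12.9 and 8.67 CPM to 0.935, 0.606, 0.411 and 0.346 CPM (-3.86 ± 0.34). Rdh1, a retinol dehydrogenase gene, fell by 3.83 ± 0.49 to 0.0865 to 0.576 CPM in 3 cKO libraries and 0 in the other. Acsbg1, which activates long fatty acids for oxidation and steroid-making cells express, stood at 33.2, 32.2, 48.2 and 39.9 CPM in controls and 10.2, 5.38, 1.98 and 3.37 CPM in cKO (-2.86 ± 0.42). Ct55 (-3.42 ± 0.24), Rarres1 (-3.18 ± 0.27), Celf3 (-3.14 ± 0.49), Insyn2b (-3.13 ± 0.30), Rhox8 of the reproductive homeobox cluster (-2.83 ± 0.49) and Sectm1b (-2.70 ± 0.48) were the other large falls. Falls were ranked, as rises were, only among called genes without overlap between the genotypes.

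The effect of genotype at PND4 was set against that at PND1, the nearest age, in 16 postnatal libraries of the same 4 kinds (4 each). Of 16625 genes tested, the difference passed in 33 (0.198%), 6 with a more positive and 27 with a more negative effect at PND4. Of the 565 tested list members, 5 were among them, Irx3, Ccnd1, Nrp2, Igfbp6 and Thbs2 (Irx3, Ccnd1, Nrp2 and Igfbp6 are named here after their values were seen). Irx3 was lower at both ages and more so at PND4 (-1.59 ± 0.10 and -2.35 ± 0.10 in this fit; difference -0.77 ± 0.14, adjusted p = 0.0202; 0.0742 without cKO replicate 2, 0.077 without cKO replicate 4 and 0.182 in the model of all 24 libraries). Grhl3, an epithelial transcription factor gene, had medians of 7.22 and 7.86 CPM in PND1 controls and cKO and of 20.3 and 5.85 CPM at PND4. Its effect was 0.06 ± 0.13 at PND1 and -1.74 ± 0.12 at PND4 (difference -1.80 ± 0.18, adjusted p = 3.3e-05). Tnni1, a troponin gene, was already lower at PND1 (-1.21 ± 0.14) and fell further at PND4 (-2.63 ± 0.16; adjusted p of the difference 0.00447), with medians of 36.6, 16.2, 41.3 and 6.81 CPM in PND1 controls, PND1 cKO, PND4 controls and PND4 cKO. Sntb1, a gene of the dystrophin complex, went from -0.29 ± 0.13 to -1.40 ± 0.13.

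The effect of genotype also differed in size or sign for other genes. Plekha6 rose by 1.89 ± 0.13 at PND1 and by 0.83 ± 0.12 at PND4. Pitpnm3 rose by 1.14 ± 0.16 at PND1 and fell by 0.57 ± 0.16 at PND4; fitted on the PND4 libraries alone, its fall was not called without any 1 of 6 of them (adjusted p from 0.0529 to 0.11). Thbs2, a matrix gene of thecal cells, was at -0.22 ± 0.09 at PND1, which did not pass, and rose by 0.70 ± 0.09 at PND4 (difference 0.92 ± 0.13, adjusted p = 0.00281). Bace2 fell by 1.26 ± 0.10 and then by 0.39 ± 0.10 (on the PND4 libraries alone, adjusted p = 0.0526 without cKO replicate 2), and Trim66 fell by 2.11 ± 0.20 at PND1 and did not pass at PND4 (-0.49 ± 0.21). For Grhl3, Tnni1, Sntb1, Plekha6, Pitpnm3, Thbs2, Bace2 and Trim66 the difference between the ages was called in each alternative fit of the interaction. It was also called in each for Nrp2 and Ccnd1. Fam163a, Dio2, Adra1a, Cela1, Oprk1, Irx3 and Igfbp6 lost their call without 1 or more of the PND4 libraries. The number of genes called ranged from 14 without cKO replicate 2 or 4 to 133 without control replicate 5, so that the number depends on single libraries. It was 19 without control replicate 2.

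**Figure D5:**
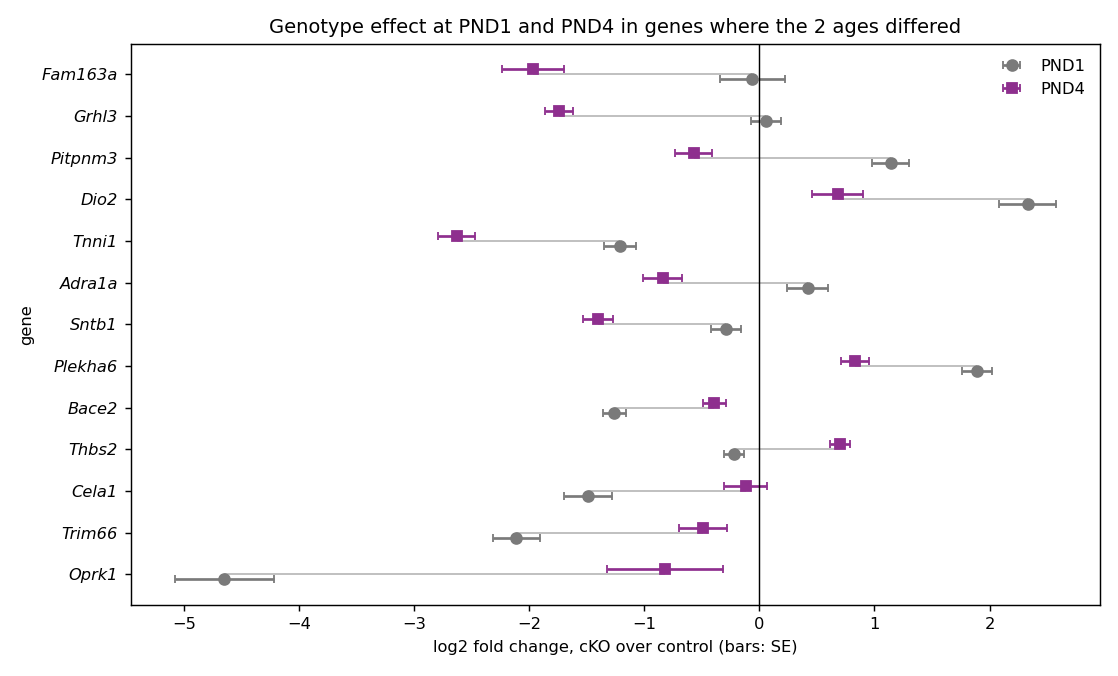
Genotype effect (log2 fold change, cKO over control, with SE) at PND1 (grey circles) and PND4 (purple squares) in 13 of the named genes whose effect differed between these ages. Grhl3 lies near 0 at PND1 and at -1.74 at PND4, and Pitpnm3 changes sign, from 1.14 to -0.57.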

How the data were processed

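The authors deposited 1 table of whole-number read counts per gene for all 24 libraries, and the 8 PND4 columns were used, with the 8 PND1 columns for the comparison of ages. Per the submitters' processing notes, the tools were Trimmomatic, STAR, HTSeq and DESeq2, on build GRCm38; versions, annotation release and strand setting are not stated there. Gene positions come from GENCODE M21, which matched 55141 of the 55487 identifiers.

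Counts were tested with edgeR 4.0.16 in R 4.3.3 (quasi-likelihood, robust, TMM normalisation, filterByExpr with a minimum count of 10 and a minimum total of 15). P-values were adjusted over all 16046 genes tested by Benjamini-Hochberg, with a threshold of 0.05. Standard errors are the log2 fold change divided by the square root of F. CPM values use TMM library sizes. The fit was tested on simulated data with planted changes. It called 26 of 50 genes changed 1.5-fold and 41 of 50 changed 2-fold, and 4.07% of its calls were false. For the interaction it called 19 and 30 of 50, with 3.36% false. A gene that did not pass may thus still differ. The interaction was fitted on 16 libraries.

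Genes named are Nr5a1, Amhr2, the 12 largest rises and falls among called genes with a mean of at least 1 CPM and no overlap, preset members and up to 8 members of smallest p in each list, up to 4 in each family, and the 8 largest interactions each way with a mean of at least 1 CPM. Gene lists and members were chosen with earlier results of these data known. Promoters were RefSeq sequences of build GRCm38.p6. The alternatives were DESeq2 size factors, DESeq2 1.42.0, no filter, a model of all 24 libraries and the replicate number as a block. Others were a covariate for library numbers above 12, and leaving out each library. Tables were made with Python 3.11.15, pandas 2.3.3, numpy 2.4.6 and scipy 1.17.1, and figures with matplotlib 3.10.9. Some genes are not reported here.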

Additional observations from a re-analysis of the deposited data

Results flagged for a closer look

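In 23 of 502 groups of 4 libraries (4.58%), 1 library stood apart from the other 3 for a gene named in the text, by a gap that chance gives in about 1 of 20 groups. In controls, replicate 5 held the lowest value of Fshr (0.694 CPM), Col14a1 (40.2 CPM) and Plekha6 (14.5 CPM) and the highest of Ddx4 (165 CPM), Cst12 (36.5 CPM), Gata3 (13.5 CPM) and Gstm1 (390 CPM). Control replicate 3 was highest for Cdh1 (49.3 CPM) and Aldh1a3 (23.2 CPM) and lowest for Cdh2 (67.6 CPM), Cdkn1b (290 CPM) and Ifi202b (0.146 CPM). Control replicate 2 was lowest for Rspo1 (53.3 CPM) and Srd5a2 (5.65 CPM). Among cKO libraries, replicate 1 was highest for Plvap (32.5 CPM), Ihh (1.95 CPM), Adra1a (4.83 CPM), Rhox8 (0.935 CPM) and Trim66 (2.26 CPM) and lowest for Ptprc (7.72 CPM). Replicate 3 was highest for Angpt1 (41.2 CPM) and Tgfbr2 (184 CPM), and replicate 4 for Celf3 (0.606 CPM).

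The genotype effect differed between PND4 and PND1 by the interaction test for 17 of the genes named. On the log2 scale, PND4 minus PND1, the difference was -1.91 for Fam163a, -1.80 for Grhl3, -1.71 for Pitpnm3, -1.65 for Dio2, -1.42 for Tnni1, -1.26 for Adra1a, -1.11 for Sntb1 and -1.06 for Plekha6. It was -0.92 for Nrp2, -0.85 for Ccnd1, -0.77 for Irx3 and -0.71 for Igfbp6. It was positive for Oprk1 (3.83), Trim66 (1.62), Cela1 (1.37), Thbs2 (0.92) and Bace2 (0.87). Oprk1 fell at PND1 (-4.65 ± 0.43), from an average of 3.3 CPM in controls to 0.121 CPM in cKO. At PND4 it averaged 0.436 and 0.241 CPM and did not pass (-0.82 ± 0.50).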

How the results depend on the processing

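The number of genes called at PND4 was 3489. Under DESeq2 size factors, DESeq2, no filter, all 24 libraries, a covariate for library numbers above 12 and the replicate block it lay between 3283 and 3999. Leaving out 1 library gave 2743 (without cKO replicate 2) to 4288 (without cKO replicate 1). Nr5a1 ranged from -1.06 to -0.93 and Amhr2 from -2.30 to -2.07 when 1 library was left out. No named gene changed direction among called values, and of 196 called genes named in the text 174 kept their call in every alternative run. The number of genes whose effect differed between PND4 and PND1 (33) was 58 with no filter, 18 in the model of all 24 libraries and 14 to 133 when 1 PND4 library was left out; the cause was not tested. The replicate block could use only the 6 libraries numbered 2, 3 and 4 in both genotypes. Same-numbered libraries did not deviate together (r across genes 0.0612, -0.0829 and -0.247), which cannot show whether they share a batch. Control replicates 4, 2, 3 and 5 had library numbers 1, 7, 13 and 19. Those of cKO replicates 4, 2, 3 and 1 were 2, 8, 14 and 20. Control replicate 5 thus stood beside cKO replicate 1 (r = -0.254), and pairs by library order were not fitted as blocks. With the replicate block 3752 genes were called, 1876 higher and 1876 lower. Under it Dio2, Hsd3b1, Ifitm6, Mfng, Mki67, Pitpnm3 and Rad21l lost their call (adjusted p from 0.0501 to 0.108), 17 growing-oocyte genes and 11 genes of the KIT and PI3K route were called lower, as were 5 growing-follicle granulosa, 5 testis-type, 4 Notch and 3 Hedgehog genes, and potassium channel rises were 13 and glutamate receptor rises 5. At these depths 39441 genes had too few counts to be tested.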

Other observations

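Members of further gene families, and further members of families described above, also differed between genotypes at PND4. Of 5 tested TBX genes 3 rose: Tbx2, a transcriptional repressor gene of mesenchyme, stood at 62.9, 63, 72.9 and 42.6 CPM in controls and 126, 137, 137 and 115 CPM in cKO (1.09 ± 0.14), and Tbx18, of mesenchymal precursors, rose by 1.89 ± 0.36. Of 13 chemokine genes 5 rose and 1 fell. Cxcl12, which guides germ cells and leukocytes, went from 96.1, 90.7, 103 and 61.8 CPM to 193, 163, 170 and 159 CPM (0.96 ± 0.14), and Cxcl14 rose by 2.10 ± 0.35. Of 14 SOX genes 4 rose and 1 fell, with the endothelial Sox7 higher by 1.26 ± 0.21 and Sox18 by 0.62 ± 0.15; the fall was not called without control replicate 2 or 5. Of 21 forkhead genes 2 rose and 2 fell (19% called, against 21.7% of all genes). The falls were 1 without cKO replicate 2, 3 or 4 or control replicate 2, 4 or 5. Foxc2, of lymphatic and mural cells, rose by 2.12 ± 0.26, and Foxo6 fell by 1.44 ± 0.17, from 36 to 49.2 CPM to 11.2 to 20.9 CPM. As single members of families that moved both ways, Gata3 fell by 1.33 ± 0.17, Krt20 by 2.26 ± 0.23 and the amino acid transporter gene Slc6a14 by 2.34 ± 0.19. Of 6 GATA genes 2 rose and 2 fell (66.7% called), and of 17 keratin genes 1 rose and 4 fell (29.4% called). The GATA rises were 0 without cKO replicate 3 or 4, without any 1 of the controls or with the covariate for library numbers above 12. They were 1 without cKO replicate 2 or by DESeq2. The keratin rises were 3 without cKO replicate 1 and 0 in the model of all 24 libraries. Of 18 ADAMTS genes 9 rose and 2 fell (61.1% called). Adamts15 rose by 1.58 ± 0.19 and Adamts19 fell by 0.48 ± 0.06. The falls of this family were 1 without cKO replicate 2 or 4, without any 1 of the controls or with no filter on low counts.

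Genes near Amhr2 and Nr5a1 were counted by position. Within 1 Mb on either side of Amhr2, 46 genes were tested, 9 were higher and 4 lower (28.3% called, against 21.7% of all genes), and within 5 Mb 24% of 129 were called. Within 1 Mb of Nr5a1, 13.3% of 15 tested genes were called, and within 5 Mb 17% of 53.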
